A study of Arabidopsis thaliana with 16 samples.

Results

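The 90 probe sets described here had lower mean log2 expression values with gibberellin GA3 than without it in each of 3 comparisons in Arabidopsis thaliana seedlings. They were chosen from 22746 probe sets of the Affymetrix ATH1 array, of which 9454 were at log2 4 or above on 2 or more of the 16 arrays. A probe set was taken when the difference of group means, GA3 minus no GA3, was at or under −0.35 in all 3 comparisons. This held for 93 probe sets, and 3 of them were left out by name. Of the 90 members, 57 have 1 gene in the platform annotation, 2 have several and 31 have none, and only those with 1 gene are named below.

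Gibberellins act by removing DELLA proteins, nuclear regulators that restrain growth and control many genes by binding to transcription factors. Gibberellin bound to its receptor GID1 brings DELLA proteins to an F-box protein, SLY1 in Arabidopsis, for degradation. Paclobutrazol (PAC) blocks gibberellin synthesis and so lets DELLA proteins accumulate, while added GA3 bypasses the block. In Arabidopsis seedlings gibberellin is known to lower, and DELLA proteins to raise, the expression of anthocyanin genes. Anthocyanins are pigments of the flavonoid pathway, which leads from chalcones over dihydroflavonols to anthocyanidins and their sugar-bearing forms.

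The study set out to learn how DELLA proteins affect the activity of ARR1, a type-B response regulator of the cytokinin pathway. Each of 8 groups has 2 arrays, called biological replicates in the labels without further detail, and a p-value here reflects the spread between such samples, which may be technical. All groups are in the Columbia-0 background, were moved to liquid medium at an age of 5 days and are labelled as 6-day-old seedlings. The transgenic line 35S::ARR1ΔDDK-GR expresses a form of ARR1 without its inhibitory receiver domain, fused to a glucocorticoid receptor, from the broadly active 35S promoter, and dexamethasone (DEX) moves the fusion into the nucleus. Groups of the line received 10 µM PAC for 18 h (ARR1_PAC), PAC with 50 µM GA3 (ARR1_PAC_GA), PAC with 5 µM DEX given for 3 h (ARR1_PAC_DEX), or all 3 compounds (ARR1_PAC_GA_DEX). Wild type was untreated (Col_mock), received 5 µM DEX without PAC (Col_DEX), 10 µM PAC and then, for 3 h, 5 µM benzyladenine (BA), a cytokinin (Col_PAC_BA), or PAC, 50 µM GA3 and BA (Col_PAC_GA_BA). Wild type with PAC alone was not analysed here.

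Whole seedlings were used, so fewer cells of a type and less RNA per cell cannot be told apart in any value below. The correlation of replicate arrays over probe sets was 0.968 to 0.985, all arrays shared a floor of 2.36, and their medians lay between 3.08 and 3.12. The type-A response regulator RR16, an early cytokinin response gene, had log2 values of 9.88 to 10.29 on the 4 DEX-treated arrays of the line, 4.67 to 5.21 on its 4 arrays without DEX and 6.66 to 7.46 on the 4 BA-treated arrays. RR16 had 4.28 and 3.99 in Col_mock and 5.08 and 5.64 in Col_DEX. This rise of 1.22 in wild type, without the transgene, was called too (adjusted p = 0.0484, limma). Of 2 root peroxidase genes tested from a list of 11 root genes, AT5G17820 and AT3G01190, limma called 0 in each GA3 comparison, and 1 was higher in BA-treated wild type at an unadjusted p under 0.05. With DEX, AT3G01190 was called lower in the line (−1.64, adjusted p = 1.14e-05, limma) and in wild type (−1.78, adjusted p = 0.00123). It was also called lower in BA-treated wild type than in the line without DEX (−1.35, adjusted p = 0.000217, limma). AT5G17820 was not called in these comparisons. None of 11 shoot photosynthesis genes listed had a named probe set among those tested, so the proportion of shoot to root in the samples was checked only in part.

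The GA3 differences chose the members and are given as a description without a test. In the line, PAC with GA3 minus PAC ranged over the 90 members from −3.47 to −0.36 on the log2 scale, with a median of −0.78 against 0.05 over all 9454. In the line with DEX the range was −3.23 to −0.35 and the median −0.63 against 0.08. In BA-treated wild type the range was −2.46 to −0.35 and the median −0.55 against 0.04. Of the members, 49 had their largest fall in the line without DEX, 21 in the line with DEX and 20 in BA-treated wild type.

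A 2-fold lower mean was reached by 27 members in the line, 19 in the line with DEX and 16 in BA-treated wild type, by 12 in all 3 and by none of the 3 in 58. Both GA3 arrays lay below both arrays without GA3 for 80 members (88.9%) in the line, where 16.6% of all probe sets did so. The same held for 78 members (86.7%) in the line with DEX against 11.9% of all, and for 81 (90.0%) in BA-treated wild type against 18.9%. In 70 members, 46 of them named, the arrays were separated in all 3 comparisons, as in 1.84% of all probe sets. The rule used these arrays, so nothing is read from those shares.

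A limma fit over all 9454 called 9 probe sets lower and 2 higher with GA3 in the line (0.0952% and 0.0212%) at a Benjamini-Hochberg adjusted p under 0.05. In the line with DEX limma called 0 (0.0%), with 694 higher and 233 lower at an unadjusted p under 0.05, and in BA-treated wild type it called 2 lower and 1 higher (0.0212% and 0.0106%). At that unadjusted p, 960 were higher and 486 lower in the line, and 585 and 428 in BA-treated wild type. A difference at or under −0.35 was seen for 903 probe sets (9.55%) in the line, 442 (4.68%) in the line with DEX and 1094 (11.6%) in BA-treated wild type.

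The level filter bears on some members. In 45 of them the log2 value was at least 4 on all 16 arrays, while 18 reached 4 on none of the 6 GA3 arrays and 26 on fewer than 2 of them. Those 26 could not have passed the filter on the GA3 arrays alone. The median of the mean level over 16 arrays was 5.31 for the members and 5.26 over all probe sets tested.

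**Figure D1:**
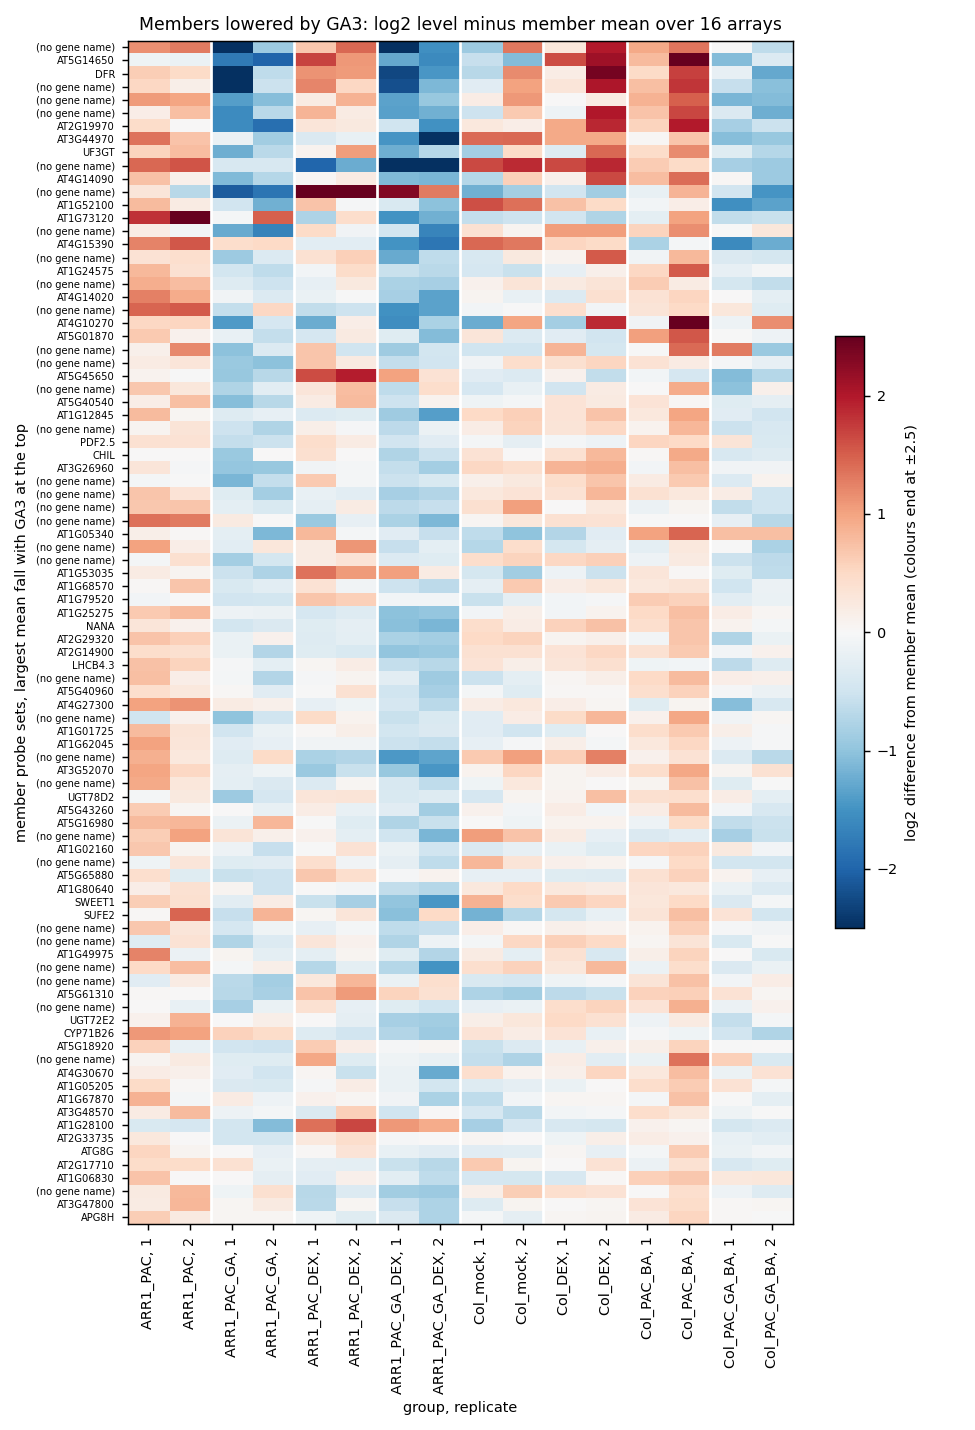
Log2 level of each of the 90 members (rows) on each of the 16 arrays (columns, group and replicate), minus the member's mean over the 16 arrays; red is above the mean, blue below, and colours end at ±2.5. Blue columns on the 6 GA3 arrays follow from the choice of members, and the 10 other arrays vary from member to member.

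The anthocyanin branch held 3 of the 6 lowest named members. DFR encodes dihydroflavonol reductase, which makes the leucoanthocyanidins from which anthocyanins arise. UF3GT and AT4G14090 encode glycosyltransferases that add sugars to anthocyanins, the latter at the 5-O position. UGT78D2, a flavonoid 3-O-glucosyltransferase, and CHIL, a chalcone isomerase-like protein that aids the early pathway, were members too. A listed set of 10 flavonoid genes had 2 named probe sets, DFR and UF3GT, and both are members. The other 3 genes were grouped with them after their values were seen.

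DFR had log2 values of 6.12 and 5.97 in ARR1_PAC against 2.79 and 4.87 in ARR1_PAC_GA. With DEX it had 6.62 and 6.56 without GA3 and 3.22 and 4.04 with it, and in BA-treated wild type 5.98 and 7.21 without and 5.30 and 4.22 with it. Each GA3 array was below both of its comparators, and the mean was lower by 4.64-fold, 7.76-fold and 3.58-fold in that order. Untreated wild type had 4.81 and 6.67 and Col_DEX 5.67 and 7.90, so these replicates lay further apart than those of ARR1_PAC.

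UF3GT stood at 4.15 and 4.36 in ARR1_PAC and at 2.36 and 2.92 in ARR1_PAC_GA. The pairs were 3.67 and 4.63 against 2.36 and 2.88 in the line with DEX, and 4.05 and 4.76 against 3.28 and 2.88 in BA-treated wild type. AT4G14090 had 4.23 and 3.64 against 2.41 and 2.80, 3.53 and 3.72 against 2.40 and 2.36, and 4.28 and 4.90 against 3.53 and 2.59 in the same order. The groups did not overlap for either gene in any of the 3 comparisons, and the means were at least 3.06-fold, at least 2.88-fold and 2.51-fold lower for UF3GT and 2.52-fold, at least 2.37-fold and 2.89-fold lower for AT4G14090. The lower bounds stand where 1 of the 2 GA3 arrays was at the floor, as it was for UF3GT in ARR1_PAC_GA and ARR1_PAC_GA_DEX and for AT4G14090 in ARR1_PAC_GA_DEX.

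UGT78D2 and CHIL had smaller differences. UGT78D2 had 7.08 and 7.37 in ARR1_PAC against 6.22 and 6.72 in ARR1_PAC_GA, and its 3 differences were −0.75, −0.65 and −0.43. CHIL had 7.06 on both ARR1_PAC arrays and 6.12 and 7.06 in ARR1_PAC_GA, so its second GA3 array equalled the comparators to the second decimal, and its differences were −0.47, −0.85 and −0.86. Untreated wild type had 6.71 and 7.20 for UGT78D2 and 7.41 and 7.07 for CHIL.

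Replicates of the pigment genes differed widely. The gap between replicate 2 and replicate 1 of DFR reached 2.23 in Col_DEX, 2.08 in ARR1_PAC_GA and 1.87 in Col_mock, beside a mean GA3 difference of −2.34. Over all members the median of the largest gap in any group was 0.73, 23 members had a gap of at least 1 in some group, and for 52 the largest gap was above the size of their mean GA3 difference. An unnamed probe set had the lowest mean GA3 difference of all members, −2.72, with 7.91 and 8.08 in ARR1_PAC and 3.19 and 5.87 in ARR1_PAC_GA.

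**Figure D2:**
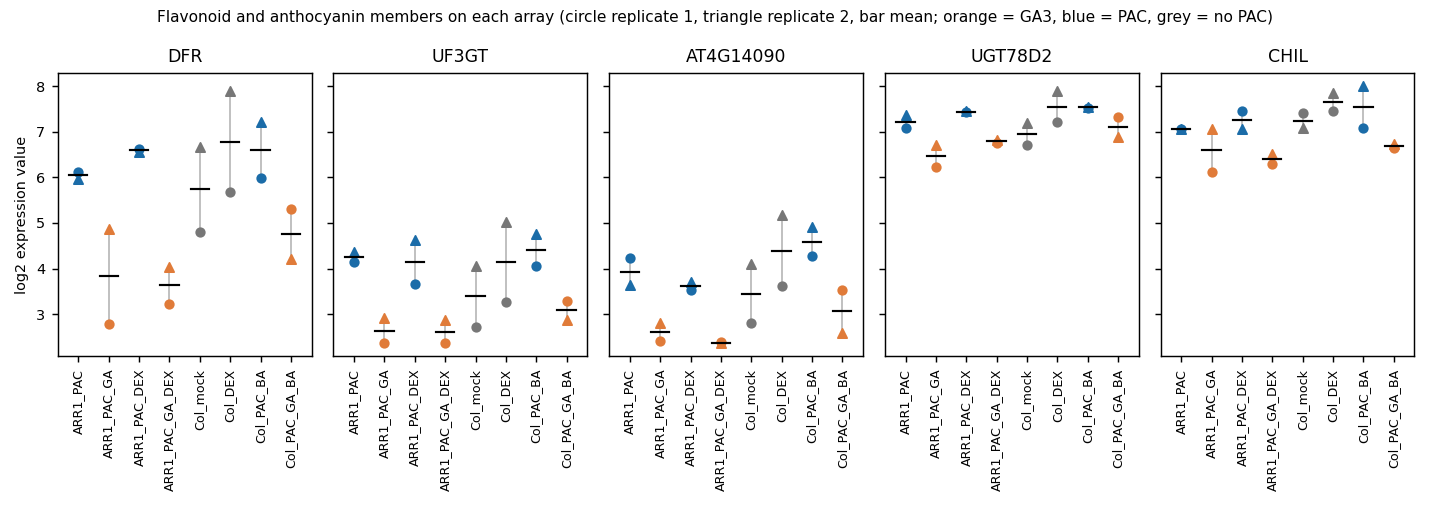
Log2 expression value (vertical axis) of DFR, UF3GT, AT4G14090, UGT78D2 and CHIL in each of the 8 groups (horizontal axis), with a circle for replicate 1, a triangle for replicate 2 and a bar for the mean; GA3 groups are orange, PAC groups without GA3 blue and groups without PAC grey. The means of the orange groups are below the blue ones by the rule, and DFR spans 5.67 to 7.90 within Col_DEX alone.

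Among the other members the cell wall and secretion were represented by AT5G14650, a pectin lyase-like polygalacturonase family gene, and AT2G19970, a gene of the secreted CAP family that also holds PR-1. AT5G14650 had 4.26 and 4.23 in ARR1_PAC against 2.60 and 2.37 in ARR1_PAC_GA, and 6.06 and 5.46 against 3.09 and 2.78 with DEX. In BA-treated wild type it had 5.17 and 7.04 against 3.28 and 4.02. The arrays separated in all 3 pairs, and the mean was 3.38-fold, 7.10-fold and 5.48-fold lower with GA3. The ARR1_PAC_GA array at 2.37 lay close to the floor of 2.36, so the first of these folds may be too small. The DEX and BA values of this gene in the line, given below, use the same array. AT2G19970 had 7.27 and 6.82 against 5.25 and 4.92 in the line, and its differences were −1.96, −1.28 and −1.95. The subtilase gene AT5G45650 and the lipid transfer protein gene AT5G01870 had mean differences of −0.87 and −0.91.

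Specialised metabolism gave 2 cytochrome P450 genes and a BAHD acyltransferase gene. AT3G44970 had 7.13 and 6.50 in ARR1_PAC, 5.61 and 4.92 in ARR1_PAC_GA, 5.42 and 5.61 in ARR1_PAC_DEX and 4.31 and 3.31 in ARR1_PAC_GA_DEX. Its differences were −1.55, −1.71 and −1.37, and the arrays separated in each pair. CYP71B26, the other P450, had −0.53, −0.42 and −0.54. The acyltransferase gene AT4G15390 had 6.45 and 6.76 against 5.65 and 5.72 in the line, 4.96 and 4.94 against 3.72 and 3.40 with DEX, and 4.43 and 5.15 against 3.63 and 3.96 in BA-treated wild type. UGT72E2, which glucosylates monolignols, was nearer the threshold with −0.41, −0.74 and −0.37.

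Genes tied to defence or stress were AT1G52100, a jacalin-type lectin, AT4G10270, of the wound-responsive family, and PDF2.5, a defensin. AT1G52100 had 6.80 and 6.21 against 5.54 and 4.81, 6.72 and 5.99 against 5.63 and 4.99, and 5.95 and 6.19 against 4.48 and 4.68. The arrays with GA3 were below those without in each pair, and untreated wild type was above all of them at 7.62 and 7.38. AT4G10270 had replicate 2 above replicate 1 in all 8 groups, by up to 2.72 in Col_DEX. Its GA3 differences of −1.44, −0.64 and −0.68 were smaller than that gap. PDF2.5 had 6.83 and 6.81 against 5.86 and 5.92 in the line, with replicates closer together than the difference. In BA-treated wild type it had 6.98 and 6.95 against 6.77 and 6.07. There the GA3 replicates lay further apart than the difference of −0.55.

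Transport, signalling and organelle genes followed with smaller values. AT1G68570, an NPF family member that carries nitrate and gibberellin, had −0.68, −0.72 and −0.62. The glucose facilitator gene SWEET1 had −0.55, −0.53 and −0.58, and the cation efflux family gene AT1G79520 −0.45, −0.72 and −0.83. AT2G14900, of the gibberellin-regulated GASA family, had −0.87, −0.62 and −0.49, and the Raf-like kinase gene AT5G40540 −1.33, −0.71 and −0.46. LHCB4.3, an antenna protein of photosystem II, had −0.79, −0.76 and −0.40. AT5G61310, of the family of cytochrome c oxidase subunit 5C, had −0.77, −0.41 and −0.38.

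Gene families with more than 1 named member were few. ATG8G and APG8H (also named ATG8I), ubiquitin-like proteins of autophagosome formation, had −0.40, −0.42 and −0.41, and −0.38, −0.36 and −0.36. The DnaJ family genes AT5G43260 and AT2G33735 had −0.43, −0.58 and −0.71, and −0.59, −0.37 and −0.37. Other such families included the P450 genes and the sugar transferases given above, UF3GT, AT4G14090, UGT78D2 and UGT72E2. Protein kinase genes of different types, the Raf-like AT5G40540 and the receptor kinase gene AT4G27300, were members too.

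Of the 12 lowest named members, 3 had no role assigned here. AT1G73120 had 5.70 and 6.41 in ARR1_PAC against 3.83 and 5.38 in ARR1_PAC_GA, 3.11 and 4.33 against 2.38 and 2.68 with DEX, and 3.64 and 4.90 against 3.27 and 3.33 in BA-treated wild type. Its values in the line without DEX were above those of every wild type group on the array means, with untreated wild type at 3.29 and 3.36. AT1G24575 reached log2 4 on 4 arrays and had differences of −1.16, −0.82 and −1.15, and AT4G14020 had −1.31, −0.99 and −0.56.

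**Figure D3:**
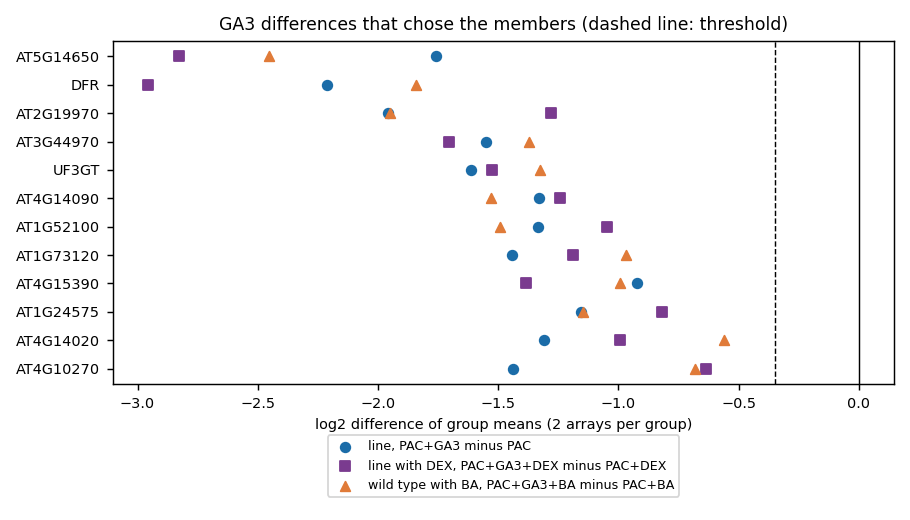
Log2 difference of group means, GA3 minus no GA3 (horizontal axis), for the 12 named members with the lowest mean of the 3 differences (vertical axis); circles are the line, squares the line with DEX and triangles BA-treated wild type, each from 2 arrays per group, and the dashed line is the threshold of −0.35. DFR and AT5G14650 reach −2.96 and −2.83 in the line with DEX.

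At the edge of the rule, the 3 named members just inside were APG8H, AT3G47800, an aldose epimerase gene, and AT5G18920, whose differences nearest 0 were −0.36, −0.35 and −0.35. The nearest probe sets outside were an unnamed one at −0.348, STOMAGEN, a peptide that promotes stomata, at −0.34 and AT1G20380 at −0.34. STOMAGEN had −1.15 in the line and −0.88 in the line with DEX and missed only in BA-treated wild type.

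Untreated wild type shows where the members stand without PAC. Relative to each member's mean over 16 arrays, the median group mean was 0.44 in ARR1_PAC, −0.40 in ARR1_PAC_GA, 0.10 in ARR1_PAC_DEX and −0.64 in ARR1_PAC_GA_DEX. It was 0.02 in Col_mock, 0.13 in Col_DEX, 0.41 in Col_PAC_BA and −0.22 in Col_PAC_GA_BA. The mean of Col_mock lay between those of ARR1_PAC and ARR1_PAC_GA for 53 members, above both for 21 and below both for 16. Beside the BA-treated wild type pair it lay between for 35, above for 22 and below for 33. The rule chose members high in ARR1_PAC and Col_PAC_BA and low with GA3, so a middle place is a description, and Col_mock differs from the line in genotype as well as in PAC.

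**Figure D4:**
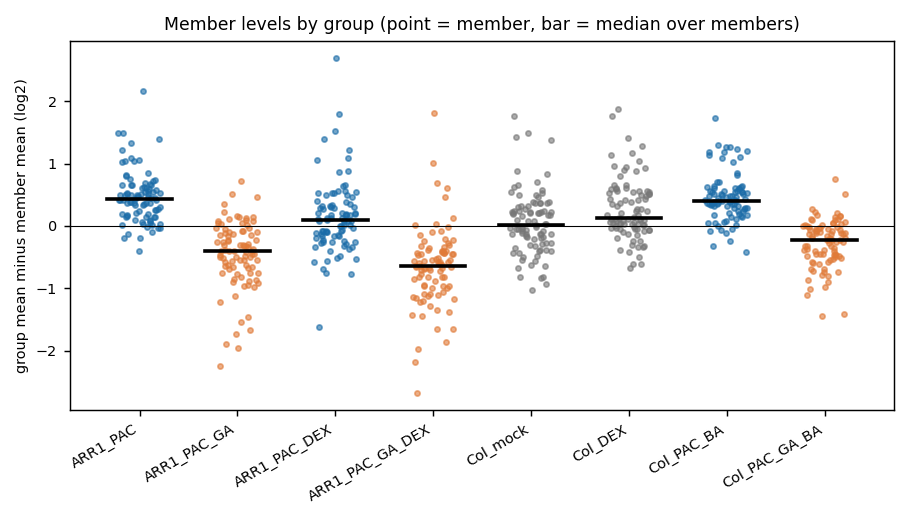
Group mean minus the member's mean over 16 arrays (vertical axis, log2) for the 90 members in each of the 8 groups (horizontal axis), with a bar at the median over members; GA3 groups are orange, PAC groups without GA3 blue and groups without PAC grey. The medians of the grey groups, 0.02 and 0.13, lie between those of the blue and the orange groups of the line without DEX.

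To ask how the members responded to nuclear ARR1, values with DEX were compared with those without it in the line, averaged over PAC and PAC with GA3. This average gives equal weight to arrays with and without GA3 and so is independent of the GA3 differences. With DEX 31 of the 90 members fell (34.4%) and 10 rose (11.1%) at an adjusted p under 0.05 in limma, where 15.5% of all probe sets fell and 16.9% rose. The median over members was −0.27 against −0.03 over all, and 60 members were below 0, as were 53.2% of all probe sets. Of the 57 named members 21 fell and 8 rose. Without the 4 arrays of the side on which they are high, 2 of the 31 and 1 of the 10, all unnamed, would not have passed the level filter. The filter thus favoured a difference in them, and setting them aside leaves 29 and 9.

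An acyltransferase gene and 2 P450 genes were among the named members that fell with DEX. AT4G15390, the acyltransferase gene, had 4.96 and 4.94 in ARR1_PAC_DEX against the 6.45 and 6.76 of ARR1_PAC, and 3.72 and 3.40 in ARR1_PAC_GA_DEX against 5.65 and 5.72. All 4 arrays with DEX were below all 4 without, and the gene fell by 1.89 ± 0.16 on the log2 scale (± SE, adjusted p = 4.14e-06, limma). CYP71B26 had 5.73, 5.59, 5.33 and 5.14 on the DEX arrays and 7.13, 7.07, 6.64 and 6.51 on the others, again without overlap, and fell by 1.39 ± 0.13 (adjusted p = 8.6e-06, limma). AT3G44970 fell by 1.38 ± 0.23, AT3G52070 by 1.27 ± 0.18, the sugar transporter gene SWEET1 by 1.19 ± 0.16 and AT1G73120 by 2.20 ± 0.36. An unnamed probe set fell furthest, by 2.69 ± 0.15.

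Further down, AT5G16980, a zinc-binding dehydrogenase family gene, fell by 0.98 ± 0.19, the receptor kinase gene AT4G27300 by 0.97 ± 0.14 and the tropinone reductase-like gene AT2G29320 by 0.87 ± 0.17. UGT72E2, AT2G14900, APG8H, NANA, a chloroplast aspartic protease, and LHCB4.3 fell by 0.77, 0.63, 0.61, 0.57 and 0.52. These members were thus lower with GA3 by the rule and lower with DEX by the test.

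Other members rose with DEX. AT1G28100 had 6.47, 6.77, 6.19 and 6.03 on the DEX arrays of the line and 4.72, 4.67, 4.64 and 4.01 on the others, a rise of 1.86 ± 0.15 (adjusted p = 2.97e-06, limma). The subtilase gene AT5G45650 had 6.33, 6.66, 5.71 and 5.06 with DEX and 4.79, 4.68, 3.75 and 4.01 without, a rise of 1.63 ± 0.19 (adjusted p = 3.78e-05, limma). Neither gene overlapped between DEX and no DEX. AT1G53035 rose by 1.17 ± 0.19, AT5G61310 by 1.04 ± 0.11, AT1G79520 by 0.53 ± 0.10 and an unnamed probe set by 3.33 ± 0.31. AT5G14650 rose by 0.98 ± 0.33 (adjusted p = 0.0365, limma), and that call was lost without a filter and without any 1 array of the line except ARR1_PAC_DEX replicate 2, with 0.83 to 1.06 where an array was left out and the call was lost.

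Of the 5 pigment genes limma called 0 with DEX in the line, and 0 had an unadjusted p under 0.05. Of all 9454 probe sets, 2003 were higher and 1984 lower at that p. DFR had 0.17 with a 95% interval of −1.06 to 1.41, UF3GT −0.06 with −0.90 to 0.77, AT4G14090 −0.27 with −1.03 to 0.49, CHIL 0.01 with −0.48 to 0.49 and UGT78D2 0.27 with −0.11 to 0.65, all on the log2 scale. On the GA3 arrays UF3GT had 2.36 and 2.92 without DEX and 2.36 and 2.88 with it. AT4G14090 had 2.41 and 2.80 against 2.40 and 2.36 there. So near the floor of 2.36 a fall could hardly register, and the averages of these 2 genes may be too close to 0.

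DEX itself was tested in wild type without PAC, on 4 arrays that entered none of the 3 GA3 differences and touched the choice of members only through the level filter. AT5G14650 was the only member called, in the direction of a rise (1.11%, against 0.656% of all), and none fell (0.0846% of all did). At an unadjusted p under 0.05, 8 members were higher and 4 lower in limma, where 378 (4.0%) and 268 (2.83%) of all 9454 were. AT5G14650 had 3.80 and 3.30 in Col_mock and 6.00 and 6.48 in Col_DEX, a rise of 2.69 ± 0.46 (adjusted p = 0.0134, limma). The groups stand well apart, but the call was lost without a filter (2.69) and without Col_mock replicate 1 (2.95), Col_mock replicate 2 (2.44) or Col_DEX replicate 2 (2.45). Of the 90 members, 68 were above 0, as were 45.9% of all probe sets, with a median of 0.20 against −0.02 over all. The pigment genes had 1.05 (DFR), 0.95 (AT4G14090), 0.75 (UF3GT), 0.60 (UGT78D2) and 0.41 (CHIL). Limma called 0 of them, and UGT78D2 had an unadjusted p under 0.05.

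**Figure D5:**
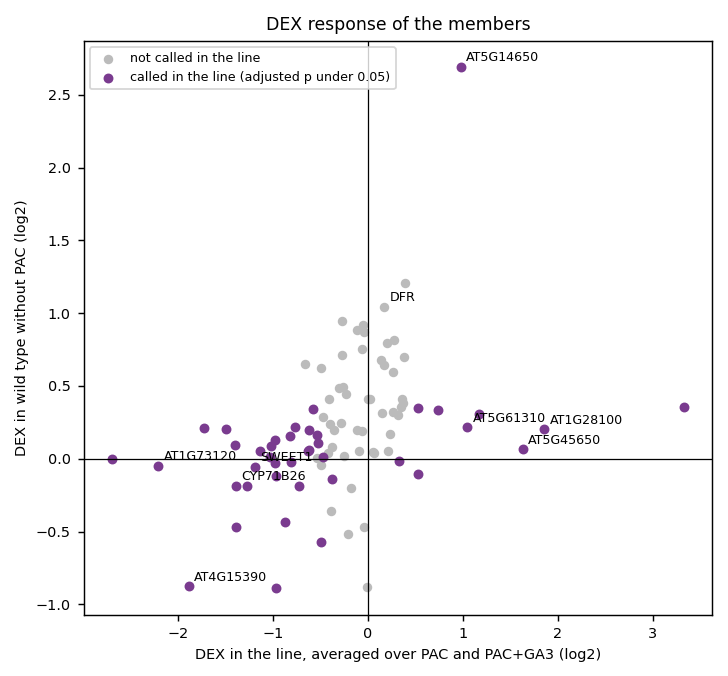
Log2 response to DEX in the line averaged over PAC and PAC with GA3 (horizontal axis) and in wild type without PAC (vertical axis) for the 90 members; purple points were called in the line at an adjusted p under 0.05 in limma and grey ones were not. AT5G14650 stands alone at 2.69 on the vertical axis, and the members called in the line reach from −2.69 to 3.33 on the horizontal one.

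The DEX response of the line minus that of wild type was then tested. The groups of wild type had no PAC, so the presence of PAC and the transgene cannot be told apart in this difference. Here 15 members were lower (16.7%, against 3.42% of all) and 4 higher (4.44%, against 5.45% of all). The median was −0.54 against −0.01, and 71 members were below 0, as were 51.1% of all probe sets. Of the 15, 1 unnamed member passed the level filter only with arrays of the side on which it is high. The 15 became 4 without Col_DEX replicate 2, 6 without either Col_mock array, 8 without ARR1_PAC_DEX replicate 1 or ARR1_PAC_GA_DEX replicate 2 and 9 without ARR1_PAC_GA replicate 2, and the 4 became 1 without Col_DEX replicate 2 and 2 without Col_mock replicate 1. CYP71B26, with −1.20 ± 0.22 (adjusted p = 0.00715), and AT1G28100, with 1.65 ± 0.25 (adjusted p = 0.00303), stayed called in limma under every setting tried.

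SWEET1 had 4.55, 4.34, 3.67 and 4.11 in the line without DEX and 3.38, 3.11, 2.95 and 2.49 with it, while wild type had 4.80 and 4.38 untreated and 4.60 and 4.48 with DEX. Its arrays thus separated in the line and overlapped in wild type, and the difference was −1.13 ± 0.27 (adjusted p = 0.0217, limma). That call was lost without a filter (−1.13) and without Col_mock replicate 2 (−0.92), Col_DEX replicate 1 (−1.07) or Col_DEX replicate 2 (−1.19). AT4G15390 had 6.66 and 6.53 in Col_mock and 5.75 and 5.68 in Col_DEX, a log2 difference of −0.88 that was not called (adjusted p = 0.14, limma). Its response in the line minus that in wild type was −1.01 ± 0.27 (adjusted p = 0.0368, limma), a call lost without a filter and without any 1 array of the line or of untreated or DEX-treated wild type except ARR1_PAC replicate 1 and ARR1_PAC_GA_DEX replicate 1, with −1.07 to −0.93. For AT5G14650, called higher with DEX in both genotypes, the response of the line minus that of wild type was −1.71 ± 0.57 (adjusted p = 0.0835, limma).

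To ask how they responded to cytokinin, BA-treated wild type was compared with the line without DEX, averaged over PAC and PAC with GA3. BA and genotype cannot be told apart here. Of the members 8 were higher (8.89%, against 4.21% of all) and 9 lower (10.0%, against 3.9% of all), with a median of 0.11 against −0.05. In each direction 1 unnamed member passed the level filter only with arrays of the side on which it is high. The 8 became 13 without Col_PAC_BA replicate 1, 5 without Col_PAC_BA replicate 2, ARR1_PAC_GA replicate 1 or Col_PAC_GA_BA replicate 1, and 4 without ARR1_PAC_GA replicate 2 or Col_PAC_GA_BA replicate 2. The 9 became 6 at the lowest.

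AT4G15390 had 4.43, 5.15, 3.63 and 3.96 in the BA-treated arrays against 6.45, 6.76, 5.65 and 5.72 in the line, a log2 difference of −1.85 ± 0.16 (adjusted p = 1.34e-05, limma). CYP71B26 had −1.12 ± 0.13, AT4G27300 −1.04 ± 0.14 and LHCB4.3 −0.54 ± 0.11. AT1G73120 had −1.54 ± 0.36 and AT5G16980 −0.78 ± 0.19 (adjusted p = 0.02 and 0.0259, limma). Both calls were lost without a filter and with only the compared groups. They were also lost without ARR1_PAC replicate 2, ARR1_PAC_GA replicate 2 (−1.16 and −0.53), Col_PAC_BA replicate 1 (−1.23 and −0.62) or either Col_PAC_GA_BA array. On the other side AT1G05340, of a cysteine-rich transmembrane family, had 5.66, 6.12, 5.41 and 5.41 with BA and 4.80, 4.69, 4.42 and 3.54 in the line, a difference of 1.29 ± 0.22 (adjusted p = 0.00407, limma). No BA array of that gene was as low as any array of the line without DEX. AT5G61310 had 0.76 ± 0.11 and AT5G14650 1.51 ± 0.33, the latter lost without a filter, with only the compared groups (1.51 in both), and without ARR1_PAC_GA replicate 2 (1.46) or Col_PAC_GA_BA replicate 2 (1.33).

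The DEX and BA comparisons share the 4 arrays of the line without DEX, so their values are only set side by side. AT5G61310 had 1.04 with DEX and 0.76 with BA, AT1G79520 0.53 and 0.44, AT4G27300 −0.97 and −1.04, and NANA −0.57 and 0.39. The BA call of AT1G79520 was lost with only the compared groups (0.44) and without either ARR1_PAC_GA array (0.44 and 0.45) or Col_PAC_GA_BA replicate 2 (0.42), and that of NANA was lost without a filter, with only the compared groups (0.39 in both) and when any single array except ARR1_PAC replicate 1 or Col_PAC_BA replicate 1 was left out, with values of 0.32 to 0.42. Of the 5 pigment genes limma called 0 with BA. DFR had 0.74 ± 0.57 and UGT78D2 0.47 ± 0.18, the latter with an unadjusted p under 0.05.

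Other genes of the pathways were looked up in lists. Of 35 genes of gibberellin metabolism and signalling, 6 had a named probe set and 1 was tested, the F-box gene SLY1. It had 0.08 with GA3 in the line, 0.35 in the line with DEX and −0.66 in BA-treated wild type. Limma called it in none of the 3, and only the last had an unadjusted p under 0.05. SLY1 had 3.50 and 4.62 in Col_PAC_BA against 3.43 and 3.36 in Col_PAC_GA_BA, so that value rests largely on Col_PAC_BA replicate 2. The receptors, the DELLA genes and the feedback-controlled oxidase genes were not among the tested named probe sets and were not analysed here. Of 20 genes of abscisic acid and dehydration, 3 were tested and limma called 0 of them in each GA3 comparison, with 0 at an unadjusted p under 0.05. COR15B, a cold-regulated chloroplast protein gene, just missed the rule with −0.59, −0.46 and −0.33, and the medians of the 3 genes were −0.27, −0.23 and −0.33. The COR15B arrays overlapped in the line, with 6.74 and 5.39 without GA3 and 4.79 and 6.16 with it. They overlapped in BA-treated wild type too (6.30 and 6.44 against 6.37 and 5.70), but not in the line with DEX (4.59 and 4.75 against 4.57 and 3.85). PDF1.2, a defensin marker of jasmonate responses and the only one of 13 listed genes tested, had 0.84, 1.95 and 0.18, and the type-A regulators ARR15 and RR16 had a median of −0.01, 0.48 and 0.22, with 0 called in the 3 GA3 comparisons by limma. In the line with DEX, PDF1.2 and 1 of the 2 regulators were higher at an unadjusted p under 0.05.

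The named members lay on all 5 nuclear chromosomes. Chromosome 1 held 20 of the 57 (35.1%, against 25.6% of all named probe sets tested) and chromosome 2 held 6 (10.5% against 14.2%). Chromosome 3 held 9 (15.8% against 20.4%), chromosome 4 held 6 (10.5% against 14.7%) and chromosome 5 held 16 (28.1% against 23.7%). These shares were not tested.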

How the data were processed

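The deposited table holds log2 expression per probe set, with 1 column per array and 0 columns of no sample, made with GCRMA according to the submitters' processing notes; its version is not given in the sources used here. GCRMA corrects background from probe sequence, normalizes across arrays and summarises probes, which compresses low values toward a shared floor. The 64 control probe sets and 13292 dim ones were left out, and 9454 were tested. Names came from the platform annotation, updated through RefSeq (assembly TAIR10.1), and all 57 members with 1 gene matched a locus. Group means were fitted to all 16 arrays with limma 3.58.1 (R 4.3.3; 8 residual and 4.66 prior degrees of freedom), two-sided, adjusted by Benjamini and Hochberg over all 9454. The study's methods named a Z-score transformation without a stated use of replicates, which was not used here. Members and lists were chosen with earlier results of these data known. Named were the 12 named members with the lowest mean GA3 difference, up to 5 called each way per comparison (all 12 for the line net of wild type), families with several members, those at the threshold and tested gibberellin genes; other names were chosen for known roles after their values were seen. The fit was also run on simulated data with independent noise on each array. Deviations of same-numbered real arrays were in part correlated between groups, as given below, so nothing is read from that run. Alternatives were other filters, scalings and thresholds, eBayes with trend, only the compared groups, a replicate block and each array left out. The number of arrays limits the precision. Plots used matplotlib 3.10.9 (Python 3.11.15).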

Additional observations from a re-analysis of the deposited data

Results flagged for a closer look

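For all 12 named members listed here the DEX response of the line differed from that of wild type in limma at an adjusted p under 0.05, and the values are that difference on the log2 scale. AT1G73120 had −2.16, CYP71B26 −1.20, SWEET1 −1.13, AT4G14020 −1.11, AT3G52070 −1.08, AT4G15390 −1.01, AT1G25275 −0.95, NANA −0.91 and APG8H −0.81, while AT1G28100 had 1.65, the subtilase gene AT5G45650 1.57 and AT5G61310 0.83. All 12 were also called in the line itself. None was called in wild type, where only 0.656% of all probe sets were called higher and 0.0846% lower. AT4G15390 had −0.88 there and NANA 0.34, each with an unadjusted p under 0.05 in limma, so a missing call does not mean no response. CYP71B26 and AT1G28100 kept their call under every alternative run.

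Leaving out 1 wild type array ended several of these calls. That of AT5G61310 was lost without any 1 of the 4 arrays of untreated or DEX-treated wild type (0.78 to 0.88). That of AT5G45650 was lost without Col_mock replicate 1 (1.54) or Col_DEX replicate 2 (1.21), that of AT1G25275 without the same arrays (−0.85 and −0.87), that of NANA without Col_mock replicate 2 (−0.78) or Col_DEX replicate 2 (−0.84), and that of SWEET1 without Col_mock replicate 2 (−0.92), Col_DEX replicate 1 (−1.07) or Col_DEX replicate 2 (−1.19). Testing without a filter also ended the calls of AT5G45650 (1.57) and SWEET1 (−1.13).

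The other 5 calls were lost when most single arrays were left out. That of AT1G73120 was lost without any 1 array except ARR1_PAC replicate 1, ARR1_PAC_DEX replicate 2, ARR1_PAC_GA replicate 1 and both Col_PAC_BA arrays (−2.29 to −1.77), and also without a filter, after quantile normalization, after centring, with the trend and robust setting and with only the compared groups (−2.16 to −2.14). That of AT4G14020 was lost without any 1 array except ARR1_PAC replicate 2, ARR1_PAC_GA_DEX replicate 1, Col_DEX replicate 1 and both Col_PAC_BA arrays (−1.23 to −0.73, the last without Col_DEX replicate 2), and also without a filter and with only the compared groups (−1.11 in both). That of AT3G52070 was lost without any 1 array except ARR1_PAC replicate 2, ARR1_PAC_DEX replicate 2, ARR1_PAC_GA_DEX replicate 1 and both Col_PAC_BA arrays (−1.32 to −0.85), and also without a filter (−1.08) and after centring (−1.06). That of APG8H was lost without any 1 array except ARR1_PAC replicate 2, ARR1_PAC_GA_DEX replicate 1 and both Col_PAC_BA arrays (−0.90 to −0.71), and also without a filter, after centring and with only the compared groups (−0.81 to −0.79). That of AT4G15390 was lost without a filter (−1.01) and without any 1 array except ARR1_PAC replicate 1, ARR1_PAC_GA_DEX replicate 1 and the 4 BA-treated arrays (−1.07 to −0.93). PAC and the transgene cannot be told apart in these differences, since the wild type arrays had no PAC.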

How the results depend on the processing

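The number of members follows the rule: it was 52 with a floor of log2 6, 38 with a threshold of −0.5, 154 with −0.25, 98 without a filter (90 shared with the main 90), 114 after quantile normalization (85 shared), 130 after centring on the 75th percentile (90 shared), and 65 to 109 with 1 array left out, lowest without Col_PAC_BA replicate 2 (57 shared) and highest without ARR1_PAC_GA_DEX replicate 1. With DEX in the line 15 members fell at a floor of log2 6, where 52 members were tested, and 28 to 36 fell and 8 to 11 rose with 1 array left out. With DEX in wild type 0 rose without a filter, and leaving out 1 array gave 0 to 1 in each direction. For the line net of wild type 6 were lower without a filter, and leaving out 1 array gave 4 to 18 lower and 1 to 5 higher. Against BA-treated wild type 3 were higher without a filter, 4 at a floor of log2 6 and 4 with only the compared groups, and leaving out 1 array gave 4 to 13 higher and 6 to 10 lower. Listed genes called with GA3 numbered 0, 0 and 0 to 1 with 1 array left out, the 1 without Col_PAC_BA replicate 1. The cause of these shifts was not tested. With the replicate number as a block the counts were 10 and 32, 1 and 0, 5 and 19, and 9 and 10 members higher and lower in the 4 comparisons in that order, and 0 listed genes. The labels share only the number, and deviations of same-numbered arrays correlated at −0.33 to 0.48 between groups. Of 750 recomputed values of 33 named calls, 617 kept direction and call, 133 kept the direction and lost the call, and 0 changed sign.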
